A study of Mus musculus with 10 samples.

Results

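The P4-ATPases examined here were the 10 mouse genes Atp8a1, Atp8a2, Atp8b1, Atp8b2, Atp9a, Atp9b, Atp10a, Atp10d, Atp11a and Atp11b. They were chosen by name, through the RefSeq accession that the array gives for each probe, and every probe of each gene was used. Of the 56605 probes on the array, 21 matched 9 of these genes, and each was printed as 1 spot. No probe was matched to Atp10d, which the RefSeq table lists as a transcribed pseudogene, and it was not analysed here. Of these probes, 15 from 8 genes were tested, 5 were too dim to test and 1 was left out for outlier spots, and 39142 probes were tested over the whole array. The study had named phospholipid-translocating ATPase activity from these same arrays, so the choice of this family is not independent evidence of a direction.

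P4-ATPases are lipid flippases. They use ATP to move phospholipids, mostly phosphatidylserine and phosphatidylethanolamine and for some members phosphatidylcholine, from the outer or lumenal leaflet of a membrane to the cytosolic leaflet. Most need a CDC50 subunit, encoded by the Tmem30 genes, to leave the endoplasmic reticulum, whereas Atp9a and Atp9b do not. In neurons they keep phosphatidylserine off the cell surface and take part in vesicle formation at the Golgi and endosomes.

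Hippocampal RNA was compared between PGC-1αf/f and nPGC-1α mice, with 5 arrays for each genotype. PGC-1αf/f mice carry a PGC-1α transgene at Rosa26 that a floxed PGK-neo-STOP cassette keeps silent, and they lack Cre. Their nPGC-1α littermates carry the same transgene and Eno2-cre, a Cre driven by the neuron-specific enolase promoter, which removes the cassette in neurons and also switches on IRES-eGFP. All mice were on a C57BL/6 background, untreated, and by the labels male and 12 weeks old. The comparison asks how neuronal overexpression of PGC-1α, a coactivator of mitochondrial genes, bears on the hippocampal transcriptome under basal conditions. The labels do not say that each array came from a separate mouse, so the p-values measure only the spread between arrays.

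Levels are log2 signals relative to the 75th percentile of each array, which is set to 0, and each difference on this scale is nPGC-1α minus its control, PGC-1αf/f. Levels of different probes were not read as relative amounts of RNA, because probes bind with different strength. Signal was used to pick the brightest tested probe of each gene and to find probes in the same range of levels. The labels also call the samples neuron, but markers of glia and vessels were well above background on every array, including 5 of 5 astrocyte genes, 6 of 6 oligodendrocyte genes and 5 of 5 endothelial genes, beside 5 of 5 pan-neuronal genes. In such bulk RNA, fewer cells of a type and less RNA per cell cannot be told apart. Between 74.5% and 81.5% of gene spots stood well above background in PGC-1αf/f, and between 67.2% and 73.4% in nPGC-1α. Y-linked genes were well above background on 4 arrays only (replicate 1 of PGC-1αf/f and replicates 1, 3 and 5 of nPGC-1α), against the male label of the other 6. Slide 1 held replicates 1 to 4 of each genotype, and slide 2 held the fifth. On slide 1 all PGC-1αf/f arrays lay in row 1 and all nPGC-1α arrays in row 2, so genotype and row cannot be told apart there. Arrays of the same replicate number shared a column of slide 1. The lowest signal well above background was 24.2 to 41.2 in PGC-1αf/f and 50.4 to 97.9 in nPGC-1α. Ppargc1a, which encodes PGC-1α, read 2.20 ± 0.08 (SD, n = 5) in PGC-1αf/f and 2.20 ± 0.11 (SD, n = 5) in nPGC-1α, a difference of 0.00 ± 0.09 (SE, adjusted p = 0.99). A second probe was marked as an outlier spot on 5 arrays and was not tested (1.06 ± 0.12 and 1.14 ± 0.17 as scanned, SD, n = 5 each). Whether either probe lies inside the transgene is not given in the sources used here, so neither checks the labels. The paper reported raised PGC-1α protein in the hippocampus of nPGC-1α mice by Western blot.

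Of the 15 tested probes, 2 had unadjusted p-values below 0.05, one of Atp9a and one of Atp11a, and both genes also had a brighter probe that differed little. The start regions of these genes are shown for that reason. The 250 bases before the annotated start are from RefSeq on GRCm38.p6, 5′ to 3′ on the gene's own strand, at chr2:168742137-168742386 (minus strand) for Atp9a and chr8:12756766-12757015 (plus strand) for Atp11a. Capitals mark the GC box GGGCGG or its reverse complement CCGCCC.
Atp9a: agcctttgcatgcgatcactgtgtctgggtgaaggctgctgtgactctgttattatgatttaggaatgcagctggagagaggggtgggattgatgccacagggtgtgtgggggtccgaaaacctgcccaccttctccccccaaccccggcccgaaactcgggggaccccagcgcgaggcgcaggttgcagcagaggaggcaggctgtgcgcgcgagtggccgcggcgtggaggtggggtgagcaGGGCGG
Atp11a: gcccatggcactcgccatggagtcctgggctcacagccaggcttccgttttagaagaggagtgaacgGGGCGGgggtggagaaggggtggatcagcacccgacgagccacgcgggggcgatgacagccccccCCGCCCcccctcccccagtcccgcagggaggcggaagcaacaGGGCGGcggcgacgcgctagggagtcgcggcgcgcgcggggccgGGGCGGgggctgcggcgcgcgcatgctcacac
The Atp9a sequence, taken at the most upstream of 4 listed starts, had 1 GC box and 64% G and C, and the Atp11a sequence had 4 GC boxes and 74.4% G and C.

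RefSeq promoters were listed for 6 of the genes (Atp8a1, Atp8b2, Atp9a, Atp10a, Atp11a and Atp11b), 10 promoters in all, and were searched on both strands. A GC box stood in 8 of the 10 and in 32.7% of all 32851 promoters. Several promoters can belong to 1 gene (Atp9a has 4 listed starts), so the 10 are not separate observations, and no test was made. None of the 10 held the ERR element TCAAGGTCA (0.387% of all promoters) or the shorter AAGGTCA that lies within it (4.08%). The cAMP response element TGACGTCA (1.55% of all), the E-box CACGTG (6.02%) and the NRF1 motif (3.74%) were likewise not found. A missing match says only that these letters are not in these windows.

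Over the whole family, no probe passed the adjusted threshold. With limma and Benjamini-Hochberg adjustment over 39142 probes, adjusted p-values of the 15 tested probes ran from 0.181 to 1.00, and over all probes 0.00255% passed, a single probe that was lower in nPGC-1α. At an unadjusted p below 0.05, 2 of the 15 (13.3%) were called, both higher, beside 11.9% of all probes, of which 3.39% were higher and 8.52% lower. This background split moved with the scaling: 28.5% of all unadjusted calls were higher as scaled here and 58.5% after quantile normalization. It also moved with the filter on dim probes. Without that filter 63.2% were higher, and with probes well above background on all 10 arrays 37.4% were. The groups did not overlap for the same 2 probes, beside 2.74% of the 34000 probes with all 10 values, 0.709% higher and 2.03% lower. Of the 15 differences, 10 were above 0, beside 40.8% of all probes, and their median was 0.03, beside -0.04.

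The brightest tested probe of each gene showed small differences. Over 8 genes these ran from -0.17 to 0.19 with a median of 0.00, with 4 above 0 and 4 below, and all 95% confidence intervals lay between -0.37 and 0.43. None had an unadjusted p below 0.05 (0.0978 to 0.922), beside 8.21% of 17597 genes taken with 1 probe each (3.18% higher, 5.03% lower). The other 7 tested probes of these genes differed by 0.00 to 1.00, with a median of 0.32 and 6 of 7 above 0. Among the 7426 other tested probes that were not the brightest of their gene, 58.2% were above 0 and the median was 0.05. Among the 14854 tested probes with mean levels in the range of these 7, 39.2% were above 0 and the median was -0.07. With all values raised to a common floor, the median of the 7 was 0.16, and after normexp it was 0.18. The split by brightness was made after the values were seen.

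**Figure D1:**
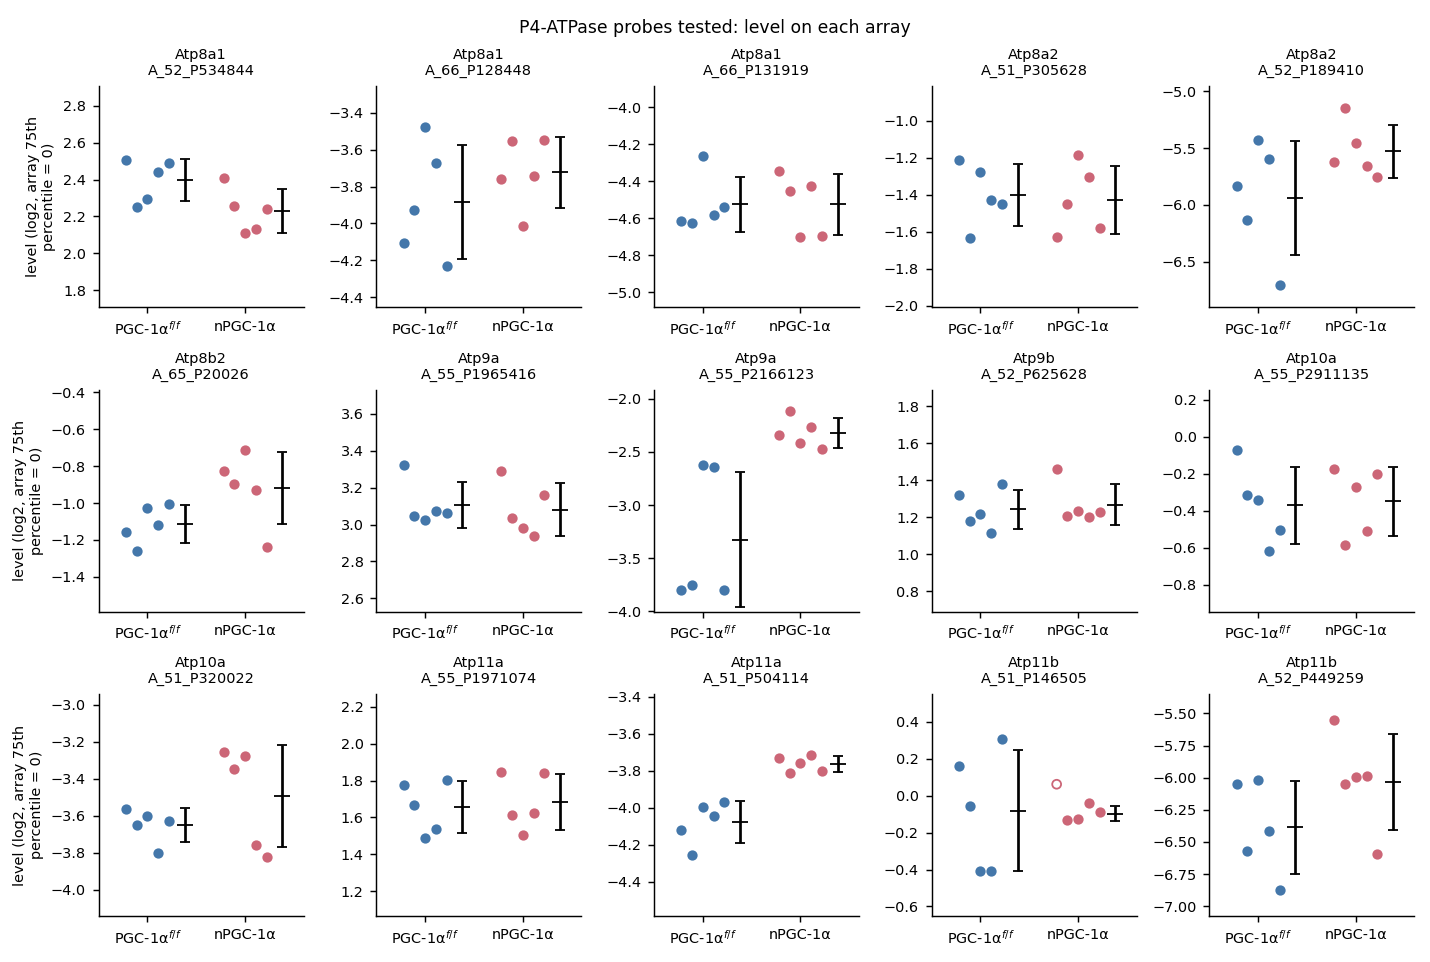
Level of each tested P4-ATPase probe on each array, on the log2 scale with the 75th percentile of the array at 0; every panel has its own axis. Points are the arrays in replicate order, bars the mean and SD of each group, and the open point an outlier spot that was left out; only A_55_P2166123 of Atp9a and A_51_P504114 of Atp11a have groups that do not overlap.

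Atp8a1 and Atp8a2 are phosphatidylserine flippases of neurons. The bright Atp8a1 probe (A_52_P534844) read 2.50, 2.25, 2.30, 2.44 and 2.49 on PGC-1αf/f arrays 1 to 5, and 2.41, 2.26, 2.11, 2.13 and 2.24 on nPGC-1α arrays 1 to 5. Of the nPGC-1α arrays, 4 lay below the PGC-1αf/f mean, and the groups overlapped. Its means were 2.40 ± 0.11 and 2.23 ± 0.12 (SD, n = 5 each). The difference was -0.17 ± 0.09 (SE), with a 95% confidence interval of -0.37 to 0.04 and an adjusted p of 0.503. The other Atp8a1 probes, annotated to another transcript accession, differed by 0.16 ± 0.15 (A_66_P128448, adjusted p = 0.698) and by 0.00 ± 0.11 (A_66_P131919, SE).

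Atp8a2, whose loss causes axonal degeneration in mice, read -1.40 ± 0.17 and -1.43 ± 0.19 (SD, n = 5 each) with its brighter probe A_51_P305628, a difference of -0.03 ± 0.12 (SE, adjusted p = 0.939). Its dimmer probe A_52_P189410 read -5.83, -6.13, -5.43, -5.60 and -6.70 in PGC-1αf/f, and -5.62, -5.15, -5.46, -5.66 and -5.75 in nPGC-1α. All 5 nPGC-1α arrays lay above the PGC-1αf/f mean, but 2 of the PGC-1αf/f arrays fell within the nPGC-1α range. The difference was 0.41 ± 0.22 (SE), with an interval of -0.08 to 0.90 and an adjusted p of 0.496. It was 0.22 without PGC-1αf/f replicate 5 and 0.13 with values raised to a common floor.

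Of the Atp8b genes, Atp8b1, which acts in the canalicular membrane of liver cells, was close to background. One probe (A_51_P494297) was well above background on no array, and the other (A_51_P472932) on 3 arrays of PGC-1αf/f but none of nPGC-1α, with means of -7.12 ± 0.41 and -7.63 ± 0.61 (SD, n = 5 each). No fold is given, since the lowest measurable signal of the nPGC-1α arrays lay above the PGC-1αf/f mean. Atp8b2, a phosphatidylcholine flippase of the plasma membrane, read -1.15, -1.26, -1.03, -1.12 and -1.0 in PGC-1αf/f and -0.82, -0.90, -0.71, -0.93 and -1.24 in nPGC-1α with probe A_65_P20026. Replicates 1 to 4 of nPGC-1α stood above every PGC-1αf/f array, and replicate 5 stood among the lowest. The difference was 0.19 ± 0.11 (SE), with an interval of -0.04 to 0.43 and an adjusted p of 0.508. On slide 1 alone it was 0.30 with an adjusted p of 0.303, and the single pair on slide 2 differed by -0.23. The second Atp8b2 probe was well above background on no array.

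Atp9a, a flippase of endosomes and the trans-Golgi network that takes part in endosomal recycling, held the largest difference among the tested P4-ATPase probes, in 1 of its 2 probes. Both probes carry the same transcript accession. The bright probe A_55_P1965416 read 3.32, 3.04, 3.02, 3.08 and 3.06 in PGC-1αf/f and 3.29, 3.04, 2.98, 2.94 and 3.16 in nPGC-1α. The groups overlapped throughout, and the difference was -0.02 ± 0.10 (SE), with an interval of -0.24 to 0.19 and an adjusted p of 0.937.

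The second Atp9a probe, A_55_P2166123, read -3.80, -3.75, -2.63, -2.64 and -3.80 in PGC-1αf/f and -2.34, -2.12, -2.42, -2.27 and -2.47 in nPGC-1α. It was well above background on all 10 arrays. The PGC-1αf/f arrays stood at 2 levels, replicates 1, 2 and 5 near the lower and replicates 3 and 4 near the higher, and all nPGC-1α arrays lay above both. The means were -3.32 ± 0.63 and -2.32 ± 0.14 (SD, n = 5 each). The difference was 1.00 ± 0.26 (SE), a 2.00-fold higher signal with a 95% confidence interval of 1.35 to 2.96, an unadjusted limma p of 0.00247 and an adjusted p of 0.181. This interval and these p-values assume equal spread in both groups, which the SDs of this probe do not show. The difference was 0.92 on slide 1 alone and 1.32 in the single pair of slide 2. It was 1.01 over the arrays without Y-linked signal (4 PGC-1αf/f, 2 nPGC-1α) and 1.15 with the Y-linked class as a block. The arrays with Y-linked signal, 1 of PGC-1αf/f and 3 of nPGC-1α, differed by 1.39, which rests on a single control array.

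Atp9b, the closest relative of Atp9a and a resident of the trans-Golgi network, read 1.24 ± 0.11 and 1.27 ± 0.11 (SD, n = 5 each), a difference of 0.03 ± 0.09 (SE, adjusted p = 0.927). Its second probe was not tested, with 4 PGC-1αf/f and 2 nPGC-1α values well above background. Atp10a, a phosphatidylcholine flippase, read -0.37 ± 0.21 and -0.35 ± 0.19 (SD, n = 5 each) with its brightest probe, a difference of 0.02 ± 0.13 (SE, adjusted p = 0.957). Probe A_51_P320022 of Atp10a differed by 0.16 ± 0.13 (SE, adjusted p = 0.656), and its dimmest probe was well above background on 1 array alone, nPGC-1α replicate 4.

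Atp11a and Atp11b flip phosphatidylserine and phosphatidylethanolamine at the plasma membrane and in endosomes. The bright Atp11a probe A_55_P1971074 read 1.66 ± 0.14 and 1.69 ± 0.15 (SD, n = 5 each), a difference of 0.03 ± 0.10 (SE) with an interval of -0.20 to 0.26 and an adjusted p of 0.927. A second Atp11a probe, A_51_P504114, which is annotated to another transcript accession, read -4.12, -4.26, -4.00, -4.04 and -3.97 in PGC-1αf/f and -3.73, -3.81, -3.76, -3.71 and -3.80 in nPGC-1α. All nPGC-1α arrays lay above all PGC-1αf/f arrays. The difference was 0.32 ± 0.08 (SE), a 1.24-fold higher signal with an interval of 1.10 to 1.41, an unadjusted limma p of 0.00275 and an adjusted p of 0.187. It was 0.35 on slide 1 alone and 0.17 in the single pair of slide 2. It was 0.31 over the arrays without Y-linked signal (4 PGC-1αf/f, 2 nPGC-1α) and 0.36 over those with it (1 and 3), splits too small to read a lost call from. The remaining Atp11a probe was marked as an outlier spot on 8 of 10 arrays and was not tested.

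Atp11b read 0.16, -0.06, -0.41, -0.41 and 0.31 in PGC-1αf/f with probe A_51_P146505, and -0.13, -0.13, -0.04 and -0.09 on nPGC-1α arrays 2 to 5, since the spot of replicate 1 was an outlier and was left out. The nPGC-1α arrays lay inside the wider PGC-1αf/f range, and the difference was -0.02 ± 0.16 (SE, adjusted p = 0.976). Its dimmer probe A_52_P449259 was well above background on 5 arrays of PGC-1αf/f and 3 of nPGC-1α. It differed by 0.35 ± 0.21 (SE, adjusted p = 0.535), with an interval of -0.11 to 0.81. The difference was 0.04 with values raised to a common floor, and 0.23 without PGC-1αf/f replicate 5 or without nPGC-1α replicate 1.

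**Figure D2:**
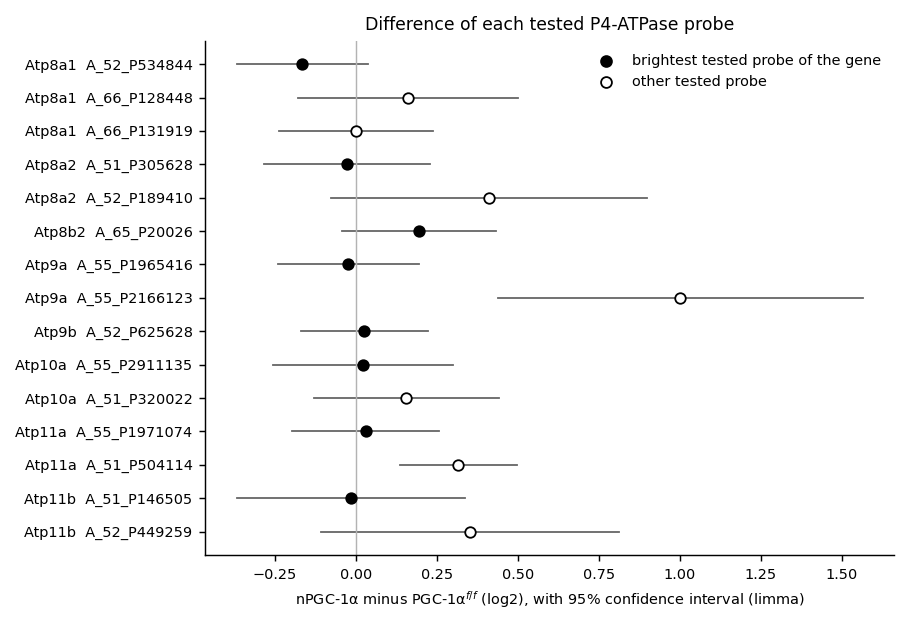
Difference between nPGC-1α and PGC-1αf/f (log2, horizontal axis) for the 15 tested P4-ATPase probes, with 95% confidence intervals from limma. Filled points are the brightest tested probe of each gene, whose intervals all include 0. Among the open points the intervals of the second Atp9a probe (0.44 to 1.57) and the second Atp11a probe (0.13 to 0.50) lie above 0.

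Because probes of 1 gene did not move alike, the log ratio of the other probe to the brightest probe was described in 7 contrasts. They were chosen after the values were seen, and no test is given. For Atp9a the ratio was 1.03 higher in nPGC-1α, and its ranges, -7.13 to -5.65 and -5.63 to -5.15, did not overlap. For Atp11a the ratio was 0.29 higher. The other contrasts, in Atp8a1, Atp8a2, Atp10a and Atp11b, were shifts of 0.13 to 0.44. A ratio within an array shows unequal change of 2 probes, not which of them reads the gene.

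Deviations from the group means describe the same disagreement array by array. Over the 10 arrays the probes of Atp9a correlated at -0.32 and those of Atp11a at -0.10, while those of Atp8a2 reached 0.37. Some bright probes of different members were closer than this: Atp8a1 and Atp9a correlated at 0.78, Atp9a and Atp11a at 0.72, and Atp9b and Atp11a at 0.70. Each pair within a gene set its brightest tested probe against a dimmer one, so the 2 kinds of pair are not alike. The lowest of 21 pairs was Atp8a2 with Atp11a, at -0.53. These values are descriptions over 10 arrays that share 2 slides, and no test was made.

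The genes most like each member, by the same correlation over 10 arrays, were Irf2bpl, Galnt16 and Wdr47 for Atp8a1 (0.97 to 0.99). They were Gng4, Gtf3c5 and Mmp15 for Atp8a2 (0.93 to 0.94), and Polr3c, Arhgap31 and Fbxo3 for Atp8b2 (0.95 to 0.97). The bright probe of Atp9a was closest to Polr2g, Chd3 and Cdc34 (0.98 to 0.99), Atp9b to Wdr19, Vps9d1 and Tubgcp6 (0.95 to 0.96) and Atp10a to Gm36560, Ang and Mpg (0.92 to 0.95). The bright Atp11a probe was closest to Usp39, Zmym2 and Esyt2 (0.98). Atp11b has a missing value and was not ranked. With 33999 probes ranked over 10 arrays, the number of probes above 0.9 differed between members: 461 for Atp11a, 299 for Atp9a and 200 for Atp8a1, but 37 for Atp9b, 17 for Atp8b2, 14 for Atp10a and 10 for Atp8a2.

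The second Atp9a probe was closest to Kcnj11 (0.99), Emc10 (0.98) and Fibcd1 (0.97), which it did not share with the bright probe. Kcnj11 read -3.60, -3.53 and -3.62 on PGC-1αf/f arrays 1, 2 and 5, and -3.00 and -2.93 on arrays 3 and 4. Its nPGC-1α levels, -3.25 to -3.12, lay between these. The difference between the groups was 0.16 for Kcnj11, 0.37 for Emc10 and 0.08 for Fibcd1, with unadjusted limma p-values of 0.294, 0.122 and 0.789. In all, 373 probes (1.10%) of 307 named genes exceeded 0.9 with the second Atp9a probe. Of these, 353 were higher in nPGC-1α, beside 40.8% of all tested probes, and 118 had an unadjusted p below 0.05, beside 11.9%. Their median difference was 0.38. They were picked for sharing a pattern over the arrays, so they are not separate observations. For the bright Atp9a probe, 40 of the 299 probes above 0.9 were higher (median -0.09). Medians for the other bright probes ran from -0.12 (Atp11a) to 0.22 (Atp8a2). The second Atp11a probe exceeded 0.9 with 23 probes and was closest to Iars, Mfn2 and Ap2a1 (0.94 to 0.96).

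**Figure D3:**
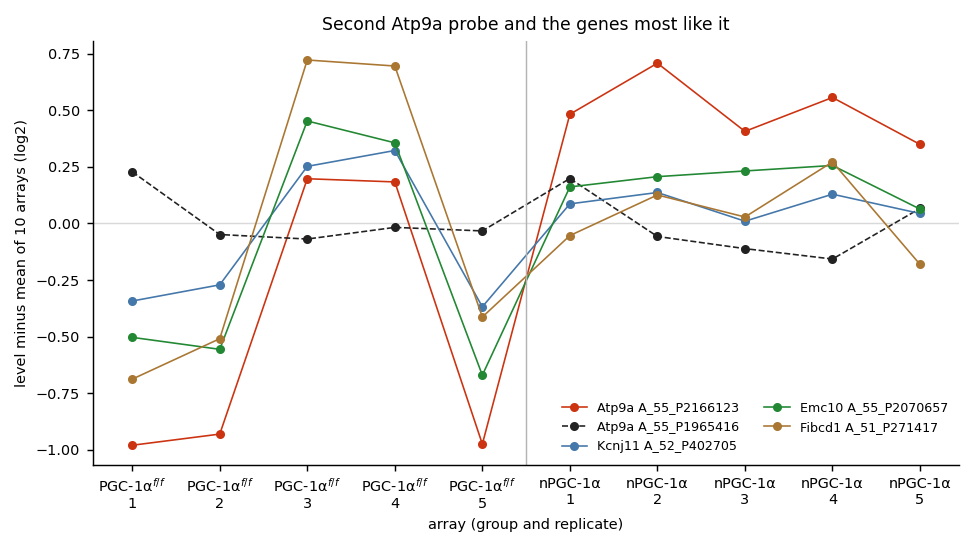
Level minus the mean of 10 arrays (log2, vertical axis) on each array for the second Atp9a probe, the bright Atp9a probe (dashed) and the genes most like the second probe, Kcnj11, Emc10 and Fibcd1. In PGC-1αf/f the second probe and the 3 genes share a step, low on replicates 1, 2 and 5 and high on 3 and 4, which the bright probe does not have; lines only join points and replicates have no order.

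Of the further P4-ATPases, 4 were described, with a median difference of -0.36 and 1 unadjusted call, Atp8b3. It read -5.74 ± 0.20 and -6.15 ± 0.15 (SD, n = 5 each), a difference of -0.41 ± 0.12 (SE, adjusted p = 0.219). It was well above background on 5 arrays of PGC-1αf/f but 3 of nPGC-1α. The probe was therefore tested only through the group where it read higher. On nPGC-1α replicates 1 and 3 it read -6.38 and -6.18, below the lowest signal well above background there (-6.07 and -5.75). The call and its size are not read as a change, and the median includes this probe. No call was made with values raised to a common floor (-0.07, limma p of 0.128), after normexp (-0.12, p of 0.236) or after quantile normalization (-0.29, p of 0.0548). Atp8b4 differed by -0.30 ± 0.19, Atp8b5 by -0.44 ± 0.24 and Atp10b by 0.49 ± 0.24 (SE; adjusted p = 0.556, 0.491 and 0.465).

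Of the CDC50 subunits, Tmem30a, the partner of most P4-ATPases in brain, was marked as an outlier spot on 7 and 8 arrays in its 2 probes and was not tested. The values as scanned were 2.76 ± 0.14 and 2.60 ± 0.07 for the brighter probe, and 0.91 ± 0.17 and 0.95 ± 0.07 for the other (SD, n = 5 each). Tmem30b was well above background on no array. Tmem30c differed by -0.18 ± 0.19 (SE, adjusted p = 0.725).

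Genes that act with the flippases were described by counts, with 1 probe per gene, beside the 8.21% of genes called at an unadjusted p and the median of -0.02 over all 17597 genes. No gene of these lists passed the adjusted threshold. The calls are those of the brightest tested probe. Of the 67 genes of all these lists without a call, 29 had another tested probe. In 5 of them (Atp13a2, Atp2c1, Dop1a, Pisd and Tyro3, named after their values were seen) such a probe had an unadjusted p below 0.05. Over all tested probes 11.9% had such a p, and Atp2c1, Dop1a and Pisd each had 2 other probes. The 5 are therefore not read as a result, and differences of other probes are given below only as descriptions. Scramblases let lipids cross between leaflets without ATP; 14 of 20 were tested, the median was -0.10, and the call was Plscr4 at -0.23 ± 0.10 (SE, adjusted p = 0.401). Of 9 lipid-exporting ABC transporters, with a median of -0.04, the call was Abcc1, which exports glutathione conjugates. It read -1.82 ± 0.26 and -2.52 ± 0.23 (SD, n = 5 each) without overlap, a difference of -0.70 ± 0.15 (SE, adjusted p = 0.130).

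Aminophospholipid synthesis, which makes the lipids that flippases move, had a median of 0.03 over 8 genes and 2 calls in opposite directions. Etnk1, an ethanolamine kinase, differed by -0.70 ± 0.17 (SE, adjusted p = 0.188) over 3 PGC-1αf/f and 4 nPGC-1α arrays that were not outliers, and its other probe by -0.21. Selenoi, an ethanolamine phosphotransferase, differed by 0.31 ± 0.10 (SE, adjusted p = 0.284) over 5 and 4 arrays, and its other probe by 0.24. Another probe of Pisd, which makes phosphatidylethanolamine in mitochondria, differed by -0.63. No call was made among 12 endosomal sorting partners, such as retromer and Mon2 (median -0.03; lowest p for Arl1, -0.24 ± 0.17, SE, adjusted p = 0.609), although another probe of Dop1a differed by -0.34. None was made among 8 tested of 10 phosphatidylserine recognition genes either (median -0.04; lowest p for Mfge8, a bridging protein, -0.19 ± 0.11, SE, adjusted p = 0.547), although another probe of the receptor Tyro3 differed by 0.49.

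Other P-type ATPases, most of which pump ions, had a median of 0.00 over 21 genes, with 3 higher and 2 lower at an unadjusted p. The calcium pumps Atp2a1, Atp2a2 and Atp2b4 differed by 0.31 ± 0.13, 0.75 ± 0.27 and 0.96 ± 0.38 (SE; adjusted p = 0.366, 0.306 and 0.352). The copper pump Atp7a differed by -0.24 ± 0.11 and Atp13a3, a polyamine transporter, by -0.77 ± 0.24 (SE; adjusted p = 0.407 and 0.261). A second Atp2b4 probe differed by 0.89, a second Atp7a probe by 0.09, and another probe of Atp13a2 by 0.84.

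**Figure D4:**
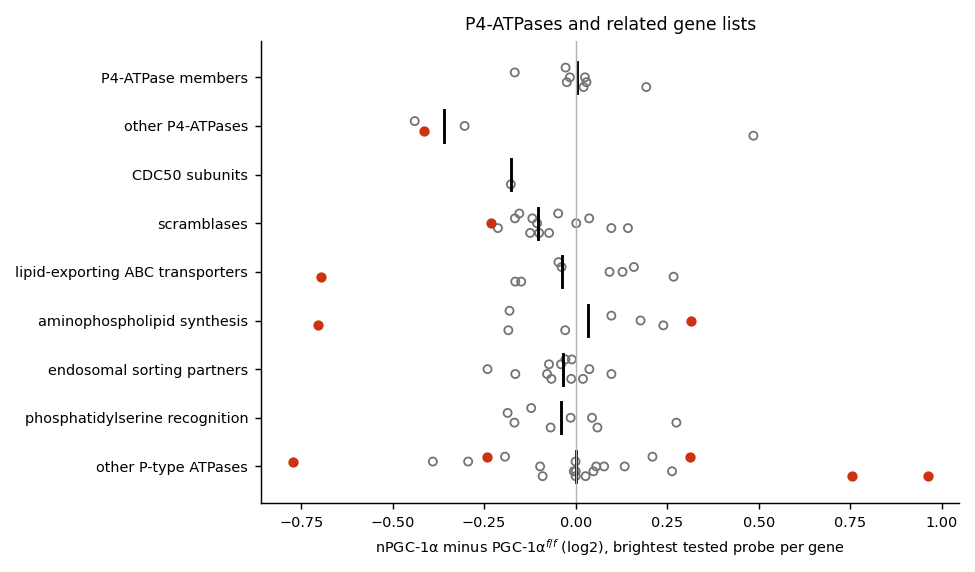
Difference between nPGC-1α and PGC-1αf/f (log2, horizontal axis) for the brightest tested probe of each gene, by list. Filled points have an unadjusted limma p below 0.05 and vertical bars are medians; the 8 P4-ATPase members lie between -0.17 and 0.19 with none filled.

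Markers of cell types were scored per array as the mean deviation of their genes from the mean of all arrays, in 13 lists with two-sided exact permutation tests, in which 5 against 5 arrays allow no p below 0.00794. Mural cell markers (3 of 4 genes tested) ran from -0.22 to -0.03 in PGC-1αf/f and from -0.01 to 0.24 in nPGC-1α (exact p = 0.00794, adjusted 0.103). Microglia markers (4 of 5 genes tested) ran from -0.06 to 0.22 and from -0.12 to -0.03 (exact p = 0.0159, adjusted 0.103). Oligodendrocyte markers differed by 0.31 and pan-neuronal markers by 0.00, and the 11 lists other than mural cells and microglia had adjusted p-values of 0.413 or more. Choroid plexus markers varied most, from -1.28 to 1.82 in PGC-1αf/f and from -1.07 to 2.58 in nPGC-1α. The part of these lists in the differences of the P4-ATPase probes was not tested.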

How the data were processed

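Total RNA from hippocampus, labelled with Cy3, was hybridised to 1-colour Agilent mouse expression arrays (5 PGC-1αf/f, 5 nPGC-1α). Groups and replicate numbers came from the sample labels. The authors deposited the scanner output, in which each spot has an intensity that Feature Extraction (11.5.1.1 per the file headers) had background-subtracted and detrended, with no normalisation between arrays. The authors also deposited log2 values for 41606 probes. They correlated with the scanner values at 0.9987 to 1.0 and served as an alternative.

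Control and outlier spots were removed, and none was saturated. Processed intensities were put on a log2 scale, averaged over the spots of a probe and set relative to the 75th percentile of all gene spots (3882.9 to 5079.6 in PGC-1αf/f, 4223.1 to 5253.2 in nPGC-1α). A probe was kept (39142 in all) if every array of 1 or both groups was well above background and each group had 3 or more values. The number of arrays limits the precision. Symbols came from RefSeq on GRCm38.p6, which named 33767 of 56605 probes. Differences were tested two-sided with limma 3.58.1 (lmFit, eBayes; R 4.3.3) with no covariate, and adjusted by Benjamini-Hochberg over all probes kept. Python 3.11.15, pandas 2.3.3, scipy 1.17.1 and, for limma, statmod 1.5.0 were also used. The test was checked on simulated data.

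The text names all members and every tested probe, Ppargc1a, other P4-ATPases, CDC50 subunits, genes of the other lists with an unadjusted p below 0.05 (or the lowest p), and the 3 genes most like each member. The members, lists and tests were chosen with earlier results of these data known. Alternatives were other scalings (quantile, median, normexp with offset 50), values as the authors deposited them, other filters on dim probes and outlier spots, a common floor, slide, replicate number or Y-linked class as a block, slide 1 alone, array weights, an exact Mann-Whitney test and leaving out each array. The 2 splits by Y-linked signal were chosen after seeing the data. For normexp, median pixel intensities were used. Of the genes these rules cover, 2 are not reported here.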

Additional observations from a re-analysis of the deposited data

Results flagged for a closer look

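In groups of 5 arrays, an array was marked where its gap to the nearest other value exceeded 0.71 of the range of the group (Dixon's criterion at 95%). Of 64 groups over the probes of the P4-ATPases and CDC50 subunits, 8 were marked, and chance gives about 3.2.

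Among bright or tested probes, the bright Atp9a probe read 3.32 on PGC-1αf/f replicate 1, beside 3.02 to 3.08 on the other arrays of its group. The bright Atp9b probe read 1.46 on nPGC-1α replicate 1, beside 1.20 to 1.24. The Atp8a1 probe A_66_P131919 read -4.26 on PGC-1αf/f replicate 3, beside -4.63 to -4.54.

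Among probes too dim to test, 3 were bright on a single nPGC-1α array. The second Atp9b probe read -4.13 on replicate 3, beside -6.60 to -6.18, where 1 other array was well above background. The Atp10a probe A_55_P2821178 read -4.30 on replicate 4, beside -8.52 to -7.81, and the Atp8b4 probe A_51_P190639 read -5.32 on replicate 2, beside -8.87 to -8.03, with no other array of the group well above background in either case. The same Atp8b4 probe read -8.82 on PGC-1αf/f replicate 1, beside -9.79 to -9.72. The Atp8b1 probe A_51_P472932 read -8.70 on nPGC-1α replicate 5, beside -7.53 to -7.18. Neither of these last sets was well above background. The cause of the single high or low arrays was not tested.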

How the results depend on the processing

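The results were recomputed under 26 alternatives, 2 of them (splits by Y-linked signal) chosen after seeing the data. The second Atp9a probe was higher with an unadjusted p below 0.05 in all 26, with adjusted p-values of 0.0442 to 0.972. Its differences ran from 0.71 (array weights) to 1.39, the latter on the arrays with Y-linked signal, where 1 PGC-1αf/f array stood against 3 nPGC-1α arrays and was assumed to vary like them. The next highest was 1.18. The second Atp11a probe was higher in all 26, by 0.27 to 0.39, and passed the unadjusted threshold in 24. No called probe changed direction. The number of adjusted calls among the member probes was 0 except without a filter on dim probes, where it was 1 (the second Atp9a probe) and 4619 of all 54980 probes were called, against 1 of 39142 in the reported fit. Median scaling gave 16 adjusted calls over all probes and array weights 10.

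Member probes with an unadjusted p, higher, numbered 4 in place of 2 with the authors' log2 values and with slide as a block. On the arrays without Y-linked signal they numbered 1. Such calls over all probes were 1328 of 39142 in the reported fit. They were 1652 of 41606 with the authors' values, 1834 of 39142 with slide as a block and 566 of 39139 without Y-linked signal. Leaving out each array gave 2 to 4 such member probes, the 4 without nPGC-1α replicate 5, where 1500 of all 38698 probes were called higher. That setting added the dimmer Atp11b probe and Atp8b2. Lower probes numbered 1 with a common floor and 0 to 1 on leaving out an array, the 1 (Atp8a1) without nPGC-1α replicate 1. Over all probes, lower calls were 2857 of 39142 with a common floor and 3431 of 39067 without that replicate. The reported fit had 3334 of 39142. The median member difference stayed within 0.00 to 0.10. Genes of the other lists at an unadjusted p numbered 10, with 6 by Mann-Whitney and 4 on arrays without Y-linked signal. On leaving out an array there were 5 to 13, of which 5 without PGC-1αf/f replicate 2 and 6 without replicate 1. Over all probes, Mann-Whitney gave 769 higher and 2002 lower calls of 34000. Leaving out PGC-1αf/f replicate 2 gave 876 and 2224 of 38839, and leaving out replicate 4 gave 1817 and 4211 of 38731.

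Same-numbered arrays correlated at 0.0776 to 0.356 in their deviations, 4 of 5 above 0.1, and 3 of 5 numbers matched best with their own. On slide 1, arrays of the same number lay in the same column. For replicates 1 to 4, outlier spots made up 10.5%, 2.81%, 3.05% and 0.192% in PGC-1αf/f. In nPGC-1α they made up 11.6%, 4.22%, 3.51% and 0.238%. On slide 2 the shares were 2.17% and 4.75%. The rule chosen for pairing needed every number above 0.1, so the reported fit did not take the numbers as pairs. It leaves a shared column unmodelled. With a replicate block, 3 member probes were higher and 0 lower at an unadjusted p, with the dimmer Atp11b probe added (unadjusted limma p of 0.00989). Adjusted calls among them numbered 0, the median was 0.04 and 15 genes of the other lists were called. Over all 39142 probes, that block gave 2037 higher and 4449 lower calls, against 1328 and 3334 in the reported fit. Signal over background limits the dim probes, since the lowest signal well above background lay at -7.51 to -6.56 in PGC-1αf/f and -6.62 to -5.75 in nPGC-1α.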
